A study of Mus musculus with 2 samples.

Results

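Intergenic CTCF sites 1-25 kb from transcription start sites (TSSs) lie in the space just beyond promoters. They were taken from the list of reproducible CTCF peaks of newborn mouse lung, on chromosomes 1 to 19 and X. A site was a member when its summit lay in sequence not masked as repeat, outside every gene body of the GENCODE M21 annotation, and over 1000 bp from any long non-coding RNA TSS. Its nearest protein-coding TSS had to be more than 1000 bp and at most 25000 bp away. Of 64732 sites, 7611 (11.8%) met this rule, which used position alone and no measured binding signal. The data are chromatin immunoprecipitation sequencing (ChIP-seq) of CTCF in whole lung of strain B6NCrl at postnatal day 0. There was 1 group of 2 replicates and no second condition. Both replicates carry 1 biosample label and 1 donor label, so their spread may reflect technical variation only. The p-values below rest on variation between sites, and none measures variation between animals. No sex was recorded. Whole lung is a mixture of epithelium, mesenchyme, endothelium and blood cells, so a weak peak in few cells and a weak peak in all cells cannot be told apart.

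CTCF is a zinc finger protein that reads a long, directional DNA motif. Cohesin extruding a chromatin loop tends to stop at bound CTCF, most readily where motifs face each other, and many domain borders and insulators are CTCF sites. Sites in the flanks of genes can lie between a promoter and the enhancers of its neighbours. In newborn lung, CTCF is present in all the main cell types, as in other mammalian tissues.

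The strongest members show the motif that the rest of the account turns on. Each line gives the gene of the nearest protein-coding TSS, the position in mm10 with the strand printed, and 60 bases read 5′ to 3′ from RefSeq's mm10 sequence. Capitals mark the best match to the 12-base core of the CTCF motif, which starts with CCA and ends with GGC in its perfect form. These are the 9 of the 10 strongest sites that held a core with at most 1 mismatch near the summit:
Rbm19, chr5:120102908-120102967, minus strand: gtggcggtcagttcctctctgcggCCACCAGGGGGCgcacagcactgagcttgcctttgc
Fnbp1l, chr3:122638788-122638847, minus strand: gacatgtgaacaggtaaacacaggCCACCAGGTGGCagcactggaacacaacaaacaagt
Srgap1, chr10:122051976-122052035, minus strand: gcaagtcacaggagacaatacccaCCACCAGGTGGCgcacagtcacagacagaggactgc
Gbx1, chr5:24530178-24530237, minus strand: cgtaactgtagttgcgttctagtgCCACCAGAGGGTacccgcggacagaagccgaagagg
Kcnk18, chr19:59239608-59239667, plus strand: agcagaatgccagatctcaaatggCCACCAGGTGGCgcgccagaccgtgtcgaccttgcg
Epm2aip1, chr9:111289995-111290054, minus strand: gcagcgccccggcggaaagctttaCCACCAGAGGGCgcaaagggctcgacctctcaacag
Ndufa4l2, chr10:127512994-127513053, plus strand: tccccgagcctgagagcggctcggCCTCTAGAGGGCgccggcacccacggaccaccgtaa
Trpv4, chr5:114667697-114667756, minus strand: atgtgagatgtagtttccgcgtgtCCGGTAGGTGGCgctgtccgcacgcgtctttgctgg
Rfng, chr11:120776254-120776313, minus strand: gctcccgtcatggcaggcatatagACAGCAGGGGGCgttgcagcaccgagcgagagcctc

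The cores at Rbm19, Fnbp1l, Srgap1, Kcnk18 and Epm2aip1 were perfect, and each of those 5 began with CCACCAG. The site with the highest mean rank over the replicates lay 13504 bp upstream of Rbm19, a nucleolar RNA-binding protein gene, in the gap between Rbm19 and Tbx5, a transcription factor of lung mesenchyme and heart. Its peak spanned chr5:120102767-120103127, and its signal, the peak caller's own value per peak on a scale that no source used here states, was 327 in replicate 1 and 346 in replicate 2. The site of Fnbp1l, which encodes an actin regulator, read 301 and 318 at 19120 bp upstream, and that of Srgap1, a regulator of Slit-Robo signalling, 305 and 307 at 4708 bp upstream. The 10 sites spanned a narrow range, from 291 to 327 in replicate 1 and from 293 to 346 in replicate 2. Only the site 19986 bp beyond the TSS of Hif1an, which encodes an oxygen-dependent hydroxylase of hypoxia-inducible factor, had 3 mismatches in its best core, with signals of 302 and 301. Trpv4 encodes a calcium channel of the airway and vessel wall, and Rfng a glycosyltransferase that modifies Notch. The TSS nearest to the site carried a CTCF site of its own at Rbm19, Fnbp1l, Srgap1 and Hif1an, and not at the other 6 genes.

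The members were bound more strongly than each of the 3 classes of site they were compared with. Sites outside these 4 classes are not given separately. Their median signal was 82.3 in replicate 1 and 77.4 in replicate 2, with quartiles of 27.2 and 153.8 in replicate 1 and of 24.6 and 148.7 in replicate 2. Intergenic sites 25-250 kb from a TSS had medians of 57.1 and 52.8. Unmasked intronic sites at the same 1-25 kb distance had 47.5 and 44.1, and sites within 1 kb of a protein-coding TSS 31.4 and 29.2. That last class was set by distance alone and was not limited to unmasked sequence. Over all sites the medians were 40.8 and 37.5, so the order of the 4 classes was the same in both libraries. Each class was broad, and the lower quartile of the members lay below the median of every other class.

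The class differences were tested in a linear fit across all sites on the mean log2 signal of both replicates, with standard errors clustered by 1 Mb window, and p-values were adjusted over 12 fits by the Benjamini-Hochberg method. Members exceeded the intergenic sites 25-250 kb away by 0.31 on the log2 scale (95% interval 0.26 to 0.36, n = 63131 sites, adjusted p = 1.07e-34). They exceeded the intronic sites by 0.43 (0.38 to 0.47, n = 63131 sites, adjusted p = 1.38e-72). Against the promoter sites the difference was 0.77 (0.73 to 0.81, n = 63131 sites, adjusted p = 2.59e-226). These p-values describe sites in this 1 biosample, not animals. The ranges over the alternative settings were 0.14 to 0.32, 0.14 to 0.43 and 0.30 to 0.90, and the lowest values came from the stronger part of the list.

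**Figure D1:**
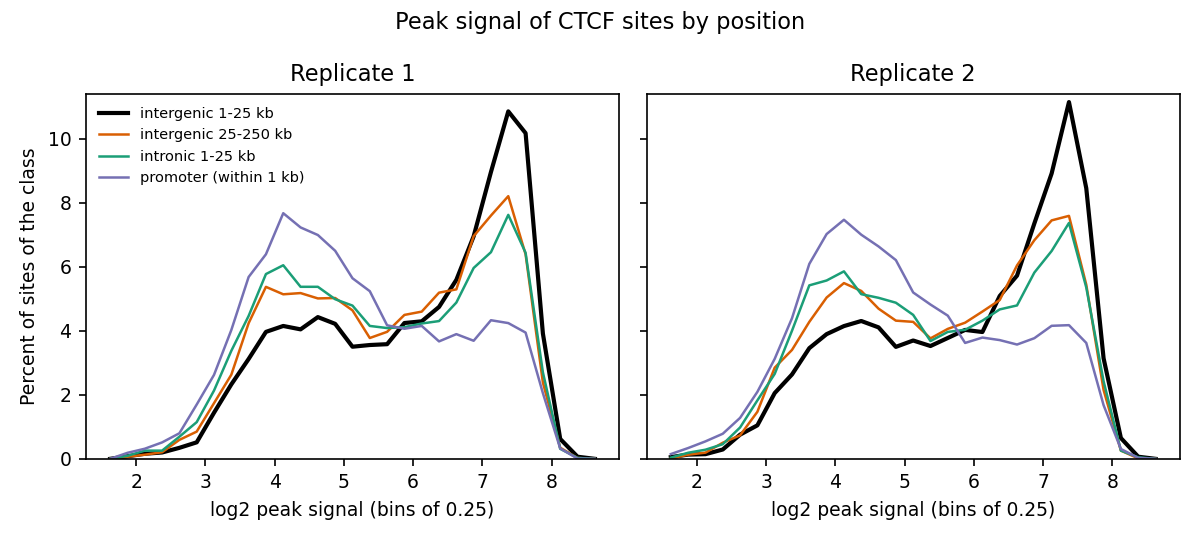
Percent of the sites of each class (vertical) in bins of 0.25 of log2 peak signal (horizontal), with 1 panel per replicate and 1 line per class. The members, with medians of 82.3 and 77.4, have more of their sites in the right-hand, high-signal mode than the other classes.

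The surplus of strong sites was visible at the top of the list. Of the members, 41.6% fell in the top 25% of all sites by pooled signal, against 31.8% of the sites 25-250 kb away, 29.3% of the intronic sites and 18.3% of the promoter sites. The 1000 strongest sites included 227 members, which is 2.98% of the members against 1.54% of all sites. The 10000 strongest included 2145, or 28.2% of the members against 15.4% of all sites. At the other end 16.0% of members were in the lowest 25%.

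The replicates ordered the members alike. Signals of the 7517 members with a peak in both replicates had a Spearman rank coefficient of 0.98, given as a description since both libraries share their source. In 88.7% of them the signals were within 1.5-fold of each other. The SD of the log2 ratio between replicates was 0.13 in the top 25% of sites and 0.71 in the lowest 25%, so weak sites carry most of the error. No replicate 1 peak lay within 100 bp of the summit for 42 members and no replicate 2 peak for 60. The authors' conservative list, of 62048 peaks on these chromosomes, is not nested in the list of sites used here. Of the members, 91.9% had a summit of that conservative list within 100 bp, against 87.4% of all sites (95% Wilson interval for the members 91.3% to 92.5%). That share was 2.15 percentage points above the sites 25-250 kb away (n = 64732 sites, adjusted p = 5.91e-06), 3.87 above the intronic sites and 9.50 above the promoter sites. Among the stronger sites alone nearly every site of each class had such a summit, and the difference from the sites 25-250 kb away was 0.0023 points.

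**Figure D2:**
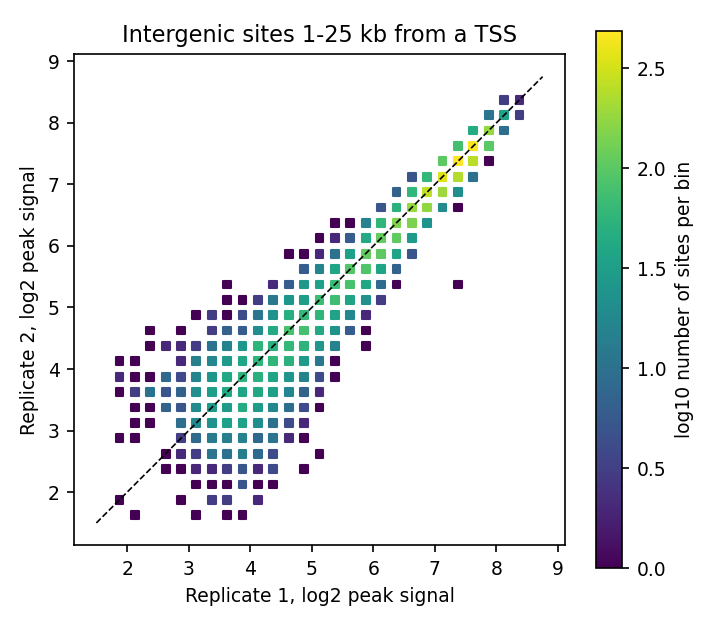
Log2 peak signal of the 7517 members in replicate 1 (horizontal) and replicate 2 (vertical), in bins coloured by the log10 number of sites, with equality as a dashed line. Bins lie close to the line at high signal and spread at low signal, where the SD of the log2 ratio rises from 0.13 to 0.71.

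The classes also differed in sequence, least between the members and the sites 25-250 kb away. A core with at most 1 mismatch lay within 50 bp of the summit in 4113 members (54.0%, Wilson interval 52.9% to 55.2%), against 48.3% of all sites. In windows of the same length placed 1000 bp to either side of the members' summits the share was 1.59%. The core was closely placed, with its centre a median of 5.5 bp from the summit and within 20 bp in 92.1% of the members that had one. The members' share was 2.18 percentage points above that of the sites 25-250 kb away (0.59 to 3.77, n = 64732 sites, adjusted p = 0.00781), a difference that did not pass the threshold in 3 of 14 alternatives. It was 6.78 points above the intronic sites (5.27 to 8.29, n = 64732 sites, adjusted p = 3.48e-18), where the stronger part of the list gave 1.94 and missed the threshold. It was 33.5 points above the promoter sites, of which 20.6% had a core, and that p was too small for double precision. Among the sites 25-250 kb away the share was 53.9% at 25-50 kb, close to that of the members. It was 51.2% at 50-100 kb and 49.75% at 100-250 kb. At like signal the order against the sites 25-250 kb away was mixed. In the top 25% of all sites by pooled signal, 72.4% of members and 71.2% of those sites had a core. In the next 25% the shares were 54.6% and 58.3%, then 36.6% and 39.5%, and in the lowest 25% they were 24.75% and 26.9%. These differences within bands of signal were not tested.

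Signal fell with each mismatch. The 1481 members with a perfect core had median signals of 142.9 and 137.8 in replicates 1 and 2. With 1 mismatch (2632 members) the medians were 105.0 and 99.88, with 2 mismatches (2074 members) 56.7 and 50.6, and with 3 or more (1424 members) 27.2 and 23.6. The steps were in the same order in both libraries and in the sites 25-250 kb away, whose perfect-core sites had 120.2 and 113.9. Members were stronger than those sites both where a core was present, by 0.32 on the log2 scale (0.26 to 0.38, n = 31068 sites, adjusted p = 1.35e-26), and where none was, by 0.26 (0.19 to 0.33, n = 32063 sites, adjusted p = 2.31e-13). The class difference was thus seen both with and without a core, in fits chosen after the data had been seen and adjusted over 6 comparisons.

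The cores themselves came in 310 forms among the 4067 members with a single best match, and some forms were bound more strongly than others. These 7 of the 12 most frequent forms, chosen after their values were seen, are shown because they differ at few bases and can be compared base by base:
Form 1: CCACCAGGGGGC
Form 2: CCAGCAGAGGGC
Form 3: CCACTAGGTGGC
Form 4: CCAGCAGGTGGC
Form 5: CCAGCAGGGGGC
Form 6: CCACAAGGTGGC
Form 7: CCAGAAGAGGGC
CCACCAGGGGGC was found at 163 members, with median signals of 166.7 and 157.9. CCAGCAGGGGGC, which starts with CCAG in place of CCAC, was found at 116 members, with medians of 125.2 and 120.4. Form 2 had medians of 117.8 and 109.1, form 3 of 146.5 and 144.5, and form 4 of 129.9 and 124.8. Over all perfect cores, the 879 that start with CCAC had medians of 153.5 and 148.1 and the 602 that start with CCAG 121.3 and 115.7. In a linear fit of that base alone, the first group was higher by 0.45 on the log2 scale (0.34 to 0.57, n = 1479 sites, adjusted p = 7.27e-14). Perfect cores with AGA at the sixth to eighth bases were lower than those with AGG by 0.22 (n = 1479 sites, adjusted p = 0.000332). The choice of C or T at the fifth base and of G or T at the ninth gave differences of 0.0047 (-0.11 to 0.12) and -0.038 (-0.15 to 0.073), neither past the threshold. Form 2, which has both CCAG and AGA, had 17 of its 150 cores in repeat-masked sequence, and such cores were kept in these fits. These fits were chosen after the data had been seen.

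Single mismatches were unevenly spread over the core. Among members with exactly 1 mismatch, 540 of 2586 (20.9%) had it at the fifth base, 469 at the first and 463 at the last, while the second base differed at 7 and the eighth at 12. The perfect form accepts C or G at the fourth base, C or T at the fifth, A or G at the eighth and G or T at the ninth. Fewer bases thus count as a mismatch at those positions than at the others. CCACAAGGTGGC, with 1 mismatch, was found at 78 members with medians of 145.8 and 129.8, close to the medians of perfect cores, 142.9 and 137.8. CCAGAAGAGGGC, also with 1 mismatch, was found at 77 members but with medians of 22.1 and 22.1, and 75 of these cores lay in repeat-masked sequence although the summits did not. Of the 4067 members with a single best match, 236 (5.803%) had it in masked sequence. Their medians were 37.5 and 40.3 against 125.2 and 120.4 for cores in unmasked sequence, a difference of -1.11 on the log2 scale (n = 4057 sites, adjusted p = 3.17e-32). Those cores lay a median of 14.5 bp from the summit. Counting only cores in unmasked sequence, the share of members with a core was 50.9%. A CpG, the dinucleotide at which mammalian DNA is methylated, lay in 204 of 4067 cores (5.02%). Members with such a core had medians of 160.6 and 150.1 against 117.3 and 112.9, a difference of 0.50 on the log2 scale (n = 4057 sites, adjusted p = 2.99e-10). No perfect form of the core can hold a CpG, so all 204 had 1 mismatch. The other group mixed perfect cores and cores with 1 mismatch, and the fit did not account for this. Methylation was not measured.

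GC content around the summit set the members apart from 2 of the 3 classes. The mean over the window of 50 bp to either side of the summit was 52.3% in members, 1.18 percentage points above the sites 25-250 kb away (n = 64732 sites, adjusted p = 2.40e-16) and 10.5 points below the promoter sites, which include CpG islands. The difference from the intronic sites was -0.12 points (-0.36 to 0.12, n = 64732 sites, adjusted p = 0.314), and it passed the threshold at -1.0 points with 1 TSS per gene and at -0.38 points with an upper distance of 10000 bp. With GC content in the fit as a covariate the 3 differences in signal kept their direction and their call.

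Members were dense near genes and thinned with distance. Because the rule fixes where a member can lie, sites were counted per Mb of sequence that meets the rule, with exact Poisson intervals that cover counting error only and treat sites as independent. There were 44.4 members per Mb (43.4 to 45.4) against 21.5 (20.98 to 21.9) at 25-250 kb. Upstream of the nearest TSS the density fell at each step, from 53.7 per Mb at 1-2.5 kb to 48.8 at 2.5-5 kb, 43.5 at 5-10 kb and 38.2 at 10-25 kb, and on to 11.7 at 100-250 kb. Beyond the 3′ end of the nearest gene among the 4 member bins it was lowest closest to the TSS, 23.5 per Mb (16.1 to 33.2) at 1-2.5 kb, where only genes shorter than that distance can contribute. It was 44.8 at 2.5-5 kb, 50.4 at 5-10 kb and 50.1 at 10-25 kb. From 5 kb outward the downstream side was thus the denser one in every bin, with intervals that did not overlap, such as 50.1 (47.5 to 52.8) against 38.2 (36.7 to 39.8) per Mb at 10-25 kb.

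**Figure D3:**
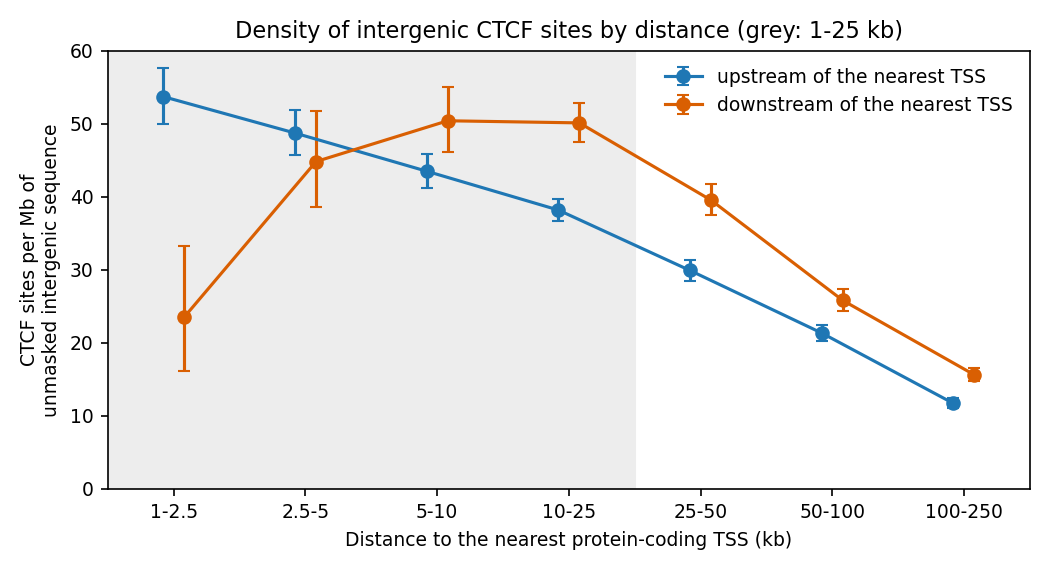
Sites per Mb of eligible intergenic sequence (vertical) in bins of distance from the nearest protein-coding TSS (kb), upstream and downstream of it, with 95% exact Poisson intervals and the range of the members in grey. The upstream density falls from 53.7 to 11.7 per Mb, and the downstream density peaks at 50.4 between 5 and 10 kb.

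Signal did not follow density within the members. Per doubling of the distance to the TSS the signal changed by 0.0087 on the log2 scale (-0.020 to 0.037, n = 7517 sites, adjusted p = 0.594). At 25-250 kb it fell by 0.22 per doubling (n = 7720 sites, adjusted p = 2.82e-30), and the slopes of both ranges differed by -0.23 (-0.27 to -0.18, n = 15237 sites, adjusted p = 2.72e-21). That comparison was chosen after the data had been seen. The medians of replicate 1 were 82.2, 80.9, 83.3 and 81.9 in the 4 member bins from the nearest to the farthest, and then 71.6, 58.4 and 41.2 in the 3 bins beyond 25 kb. With both sides pooled, signal was thus level up to 25 kb and declined from there. The sides differed. Upstream, the replicate 1 medians in the same 4 bins were 82.0, 82.3, 83.3 and 75.6. Downstream they were 98.9 in the 32 sites at 1-2.5 kb, then 74.3, 84.3 and 92.6. A slope for each side was not tested.

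The share with a core did vary along the members. It was 45.4% (41.9% to 48.8%) at 1-2.5 kb, 54.2% at 2.5-5 kb, 54.3% at 5-10 kb and 55.7% (54.1% to 57.3%) at 10-25 kb. The slope was 2.07 percentage points per doubling of distance (1.09 to 3.05, n = 7611 sites, adjusted p = 0.000278). With perfect cores alone it was 0.83 points and missed the threshold. The bin next to the promoters thus had the lowest share with a core among the 4 member bins, at a median signal that was level with the others.

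**Figure D4:**
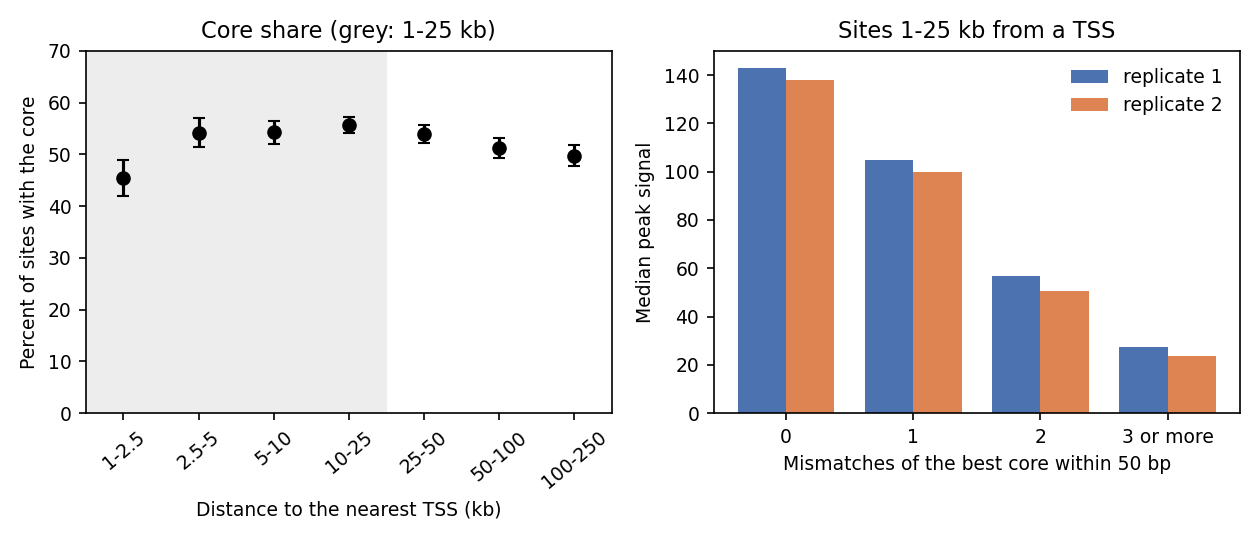
Left, the percent of sites with a core in each bin of distance to the nearest TSS (kb), with 95% Wilson intervals and the range of the members in grey; right, bars with the median peak signal of members by the mismatches of their best core, in each replicate. The share is lowest at 1-2.5 kb (45.4%), and the medians step down from 142.9 and 137.8 with a perfect core to 27.2 and 23.6 with 3 or more mismatches.

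Most members, 5487, lay upstream of their nearest TSS and 2124 beyond the 3′ end of the gene, at 42.9 and 48.9 members per Mb. A core was present in 57.6% of the downstream members and 52.7% of the upstream ones, a difference of 4.91 points (2.35 to 7.47, n = 7611 sites, adjusted p = 0.000702). That call was lost in 3 of 13 alternatives, at 4.99 points with an upper distance of 10000 bp, 2.56 with repeat-masked sequence included and 2.53 with perfect cores alone. The signal was higher downstream by 0.09 on the log2 scale (0.02 to 0.17, n = 7517 sites, adjusted p = 0.0389). That call was lost in 5 of 9 alternatives, among them replicate 1 alone, which gave 0.05.

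The arrangement of the flanking genes was counted for all members but 5, which lay between no pair of protein-coding genes. Gaps whose genes converge, so that both 3′ ends face the gap, held 52.5 members per Mb (49.5 to 55.7). Gaps between divergent genes held 45.4 (43.6 to 47.2) and those between tandem genes 41.99 (40.7 to 43.3). Convergent gaps held at least 1 member least often, 18.97% of 4107 gaps against 25.8% of tandem and 34.3% of divergent gaps, and they were the shortest, with a median length of 18413 bp among those with a member. Signals did not differ past the threshold, by 0.04 for convergent minus tandem gaps (-0.05 to 0.14, n = 5026 sites, adjusted p = 0.526) and 0.02 for divergent minus tandem (-0.05 to 0.09, n = 6390 sites, adjusted p = 0.594). Leaving out replicate 1 moved the first of these to 0.12, past the threshold. A core was present in 57.6% of members in convergent gaps and 54.1% of those in tandem gaps, a difference of 3.46 points that missed the threshold (0.10 to 6.83, n = 5098 sites, adjusted p = 0.0867). It passed in 3 of 13 alternatives.

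The CTCF core has a direction, and which way it points bears on where cohesin stops. Read 5′ to 3′, the core pointed toward the nearest TSS in 1966 of 4067 members (48.3%, Wilson interval 46.8% to 49.9%). That interval took in an even split in 7 of 13 alternatives, among them replicate 1 alone. Upstream members were even, at 50.1% (48.3% to 51.9%). Downstream members pointed toward the TSS in 44.2% (41.4% to 47.0%), which means that most of them pointed away from the gene. The downstream share was below the upstream share by 5.92 points (n = 4067 sites, adjusted p = 0.00235). Downstream sites at 25-250 kb gave 41.8% and intronic sites 47.4%, and neither differed from the downstream members past the threshold (n = 3100 sites, adjusted p = 0.184, and n = 4725 sites, adjusted p = 0.0828). These orientation fits were chosen after the data had been seen.

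Other CTCF sites were often near. The next CTCF site was a median of 4653 bp away, against 9644 bp for the sites at 25-250 kb, and 52.2% of members had another site within 5000 bp. The intronic sites at 1-25 kb were close to the members in this, with a median of 5238 bp and 48.5% within 5000 bp. The nearest TSS itself had a site within 1 kb for 37.7% of members (36.6% to 38.8%) and for 37.9% of the sites at 25-250 kb. Members with and without such a promoter site had median signals of 80.6 and 82.7 in replicate 1 and 77.03 and 77.59 in replicate 2, a difference of -0.038 on the log2 scale (-0.11 to 0.031, n = 7517 sites, adjusted p = 0.28).

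At the level of genes, 5216 of 21728 protein-coding genes (24.0%) had at least 1 member assigned by the nearest TSS. Of these 3537 had 1, 1180 had 2 and 499 had 3 or more. The most was 8, at Cbx8, a Polycomb subunit that reads histone methylation, at Coro2b, a coronin of the actin cytoskeleton, and at Ptma, which encodes prothymosin alpha. At Cbx8 the 8 sites had signals of 36.1 to 178 in replicate 1 and 31.3 to 182 in replicate 2, and 4 held a core. At Coro2b they ran from 10.9 to 238 and from 10.5 to 196, with 5 cores. At Ptma 7 of 8 had a core and the highest read 207 and 223. Signals within each of these loci thus varied several-fold. These counts were not scaled by the intergenic sequence around each gene.

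Genes of 11 lists, covering lung cell types and tissues other than lung, were set beside that share of 24.0%. The lists were chosen with earlier results of these data known. Lung lists ran from 4 of 16 alveolar type 2 and surfactant genes to 10 of 20 mesenchyme and matrix genes, with 10 of 25 lung transcription factors and 15 of 32 developmental signalling genes in between. Among lists of other tissues, 5 of 20 neuron genes and 9 of 20 heart and muscle genes lay within that range. Liver genes, with 2 of 19, lay below it. Per Mb of eligible sequence the endothelial genes had 75.5 members (44.0 to 121) against 44.4 over all members, and the liver genes 26.0 (8.45 to 60.7). With 15 to 32 genes a list, these intervals are wide, and the per-Mb interval of every list included the value over all members. For the share of genes with a member, the Wilson interval lay above 24.0% for developmental signalling (30.9% to 63.5%), mesenchyme and matrix (29.9% to 70.1%), endothelium and heart and muscle (25.8% to 65.8% for both), and included it for the other 7 lists. The share is not scaled by the sequence around each gene, and no difference between a list and the other genes was tested.

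A core was present at 4 of 6 members of the alveolar type 2 and surfactant list and 4 of 9 of alveolar type 1. In airway epithelium it was 7 of 12, in lung transcription factors 4 of 12 and in developmental signalling 8 of 25. In mesenchyme and matrix it was 7 of 13 and in endothelium 4 of 17, against 54.0% of all members. Several members next to lung genes carried a clear core, and their sequences are shown for that reason, in the same format:
Scgb1a1, chr19:9082612-9082671, minus strand: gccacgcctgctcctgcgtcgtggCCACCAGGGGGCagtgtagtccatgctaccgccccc
Id2, chr12:25092402-25092461, plus strand: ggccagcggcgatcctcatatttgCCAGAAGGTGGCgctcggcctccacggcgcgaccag
Wnt7b, chr15:85599027-85599086, plus strand: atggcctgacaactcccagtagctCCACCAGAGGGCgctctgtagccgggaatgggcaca
Shh, chr5:28451347-28451406, plus strand: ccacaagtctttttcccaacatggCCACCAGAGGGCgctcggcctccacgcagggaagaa
Aqp5, chr15:99596129-99596188, plus strand: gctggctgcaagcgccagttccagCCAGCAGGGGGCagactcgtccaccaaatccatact
Sftpb, chr6:72284019-72284078, plus strand: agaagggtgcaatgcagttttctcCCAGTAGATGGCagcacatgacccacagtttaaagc

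Among epithelial genes, the site beyond the 3′ end of Scgb1a1, the club cell secretoglobin, read 223 and 208 in replicates 1 and 2. It lay 5318 bp from the TSS, in the gap to Ahnak. The site of Krt8, a keratin of simple epithelium, read 204 and 182, in the gap to Krt78. Aqp5, the water channel of alveolar type 1 cells, had a site 4923 bp downstream, between Aqp5 and Aqp6, at 164 and 160. Gprc5a, a receptor of alveolar type 1 cells, had one at 149 and 162. Sftpb, encoding surfactant protein B, had its strongest member 20519 bp upstream, in the gap to Atoh8, at 138 and 124, and Sfta2, a secreted surfactant-associated protein gene, had one at 166 and 146. All 6 were above the members' medians of 82.3 and 77.4 in both replicates, which follows from naming the strongest members of each list. Over all members of a lung list, the medians ran from 33.7 and 29.2 for developmental signalling to 126.6 and 74.2 for airway epithelium.

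Among regulators, Id2, an inhibitor of basic helix-loop-helix factors that marks distal tip progenitors, had a site 3648 bp downstream with signals of 243 and 259. Foxa2, a pioneer factor of lung epithelium, had one 1679 bp upstream at 124.9 and 125.1, with 2 mismatches in its best core. Wnt7b, an epithelial Wnt ligand, read 217 and 214 at 16586 bp upstream, between Wnt7b and Ppara. Shh, the hedgehog ligand of lung epithelium, read 201 and 207 at 15870 bp downstream, in the convergent gap between Rbm33 and Shh. This was the only member of Shh. The cores at Wnt7b and Shh had the same 12 bases.

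Among mesenchymal and vascular genes, Des, encoding the muscle filament desmin, had a site at 194 and 163 with 1 mismatch, and Tagln, a smooth muscle actin-binding protein gene, one 1076 bp upstream at 163 and 149 with 3. Egfl7, an endothelial secreted factor whose host locus also carries a microRNA, had a pair of strong members in its gap with Notch1, at 242 and 261 and at 193 and 202. Both had 2 mismatches in their best core. S100a9, a neutrophil calcium-binding protein gene, had a site with a perfect core at 236 and 248. Cd3e, a subunit of the T cell receptor complex, had one at 169 and 169.

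Members as strong as these lay beside genes of other organs. Tnnt2, cardiac troponin T, read 229 and 214 at 24852 bp from its TSS, and Myl2, the ventricular myosin light chain, 209 and 208. Slc17a7, a glutamate transporter of neurons, read 181 and 169, and Nefl, a neurofilament gene, 189 and 162. The liver genes Tat and Pck1, of amino acid and glucose metabolism, read 149 and 154 and 148 and 152. These 6 sites spanned 148 to 229, within the 124 to 261 of those named beside lung and blood genes.

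**Figure D5:**
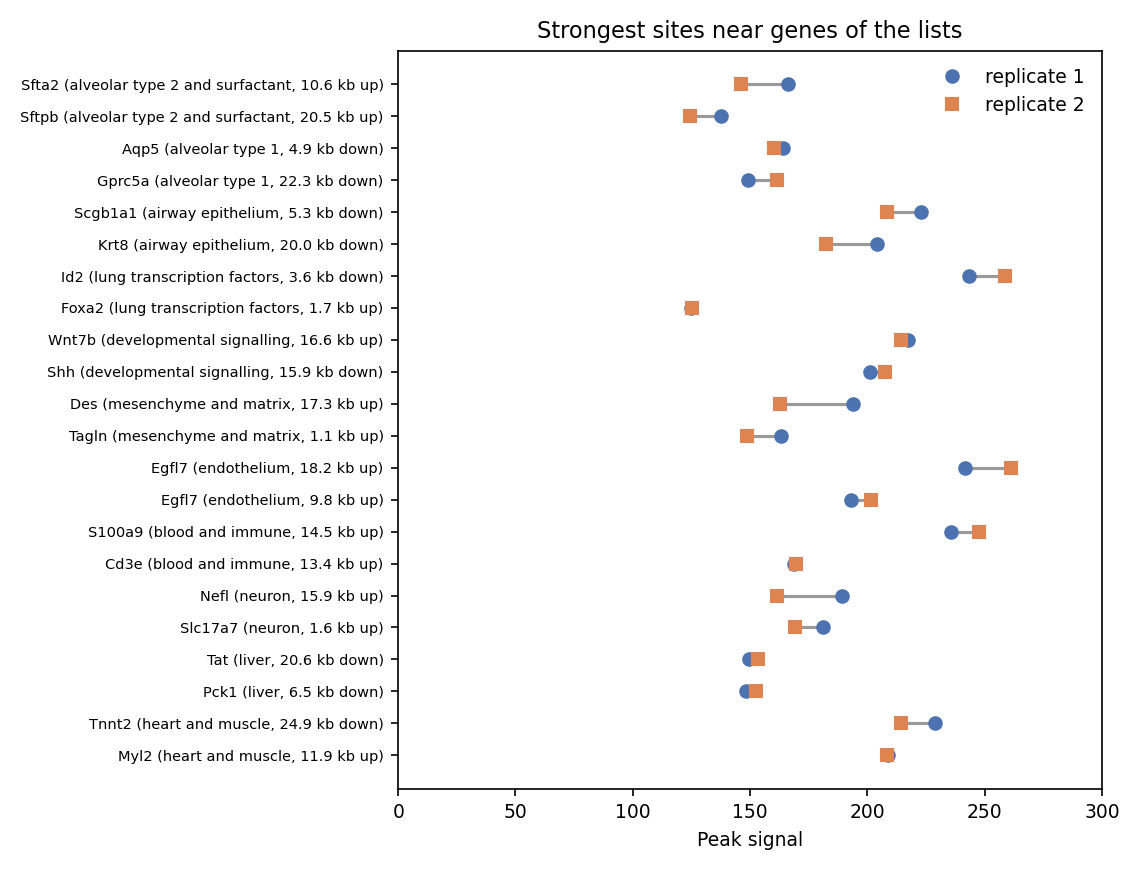
Peak signal (horizontal) of the strongest members of each gene list, 1 row per site with its list, its distance to the TSS and its side; circles are replicate 1 and squares replicate 2. Members beside lung genes such as Id2 (243 and 259) and beside heart genes such as Tnnt2 (229 and 214) occupy the same range.

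The limits of the rule fall between the following single sites. The member closest to the lower limit lay 1002 bp from Wrnip1, with signals of 34.9 and 29.7, and the site just outside it lay 1000 bp from Ccdc153, with 131 and 123. The member closest to the upper limit lay 24995 bp upstream of Vwf, the von Willebrand factor gene, with 16.0 and 6.53. The site just beyond lay 25002 bp from Adpgk, with 40.7 and 45.4. In both pairs the member was the weaker site, and no difference at the limits was tested.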

How the data were processed

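The data are CTCF ChIP-seq peak lists of newborn mouse lung, with 2 replicates of 1 group. Per the labels, the authors' lists use mm10. Not given in the sources used here are the aligner, the peak caller, the IDR threshold and the read depth. Each list holds, as deposited by the authors, a peak signal, the −log10 of the q-value (at most 5.08), a score and a summit offset in bp. The score and the q-value were not used. The signal is the peak caller's value, and its scaling by the authors is not stated.

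Sites were the 64732 peaks of the authors' optimal list on chromosomes 1 to 19 and X. The signal per replicate was the highest peak of that replicate's list within 100 bp of the summit. A site with no such peak was left out of signal fits. GENCODE M21 and RefSeq's mm10 sequence gave positions, repeat masking and the core, which was searched on both strands within 50 bp of the summit with at most 1 mismatch. In 99.95% of 13873 annotated plus-strand start codons the sequence read ATG.

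Classes were compared by linear fits across sites (numpy 2.4.6, scipy 1.17.1) with standard errors clustered by 1 Mb window, two-sided, with Benjamini-Hochberg adjustment over 12 class fits and 8 fits within the members, and a threshold of 0.05. A further 14 fits were added after the data were seen and adjusted within their family. Shares have 95% Wilson intervals. The fitting step was tested on simulated data.

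The members and gene lists were chosen with earlier results of these data known. Named sites were the 10 strongest members outside 1 chromosome and predicted genes, the 2 strongest of each list, those at the limits of the rule, those of 8 preset lung genes, and those of the 3 genes with the most members. Alternatives varied the site list, replicate, strength, spacing, TSS set, distance limit, masking, summit match and core definition.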

Additional observations from a re-analysis of the deposited data

Results flagged for a closer look

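Peaks of the pooled list that lay more than 2000 bp from any site of the optimal or conservative list were not part of the comparisons. At positions that meet the same rule there were 14957 of them, with a median pooled signal of 7.29 against 157.5 for the members. A core with at most 1 mismatch lay within 50 bp of the summit in 5.02% of them (95% Wilson interval 4.68% to 5.38%). In windows 1000 bp to either side of the same peaks the share was 0.929% (0.827% to 1.04%), and this excess of the core in unlisted peaks is why they are given here.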

How the results depend on the processing

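Of 242 values recomputed for 23 results over 15 settings, 199 kept their direction and their side of the threshold or stayed within the limits set for a count. The 3 class differences in signal did so in every one of their 10 alternatives. Where a cause is not part of the setting itself, the cause was not tested. With the stronger part of the list there were 5044 members, 65.8% of them with a core. That setting also moved the difference in core share from the sites at 25-250 kb to 0.418 points, and that from intronic sites to 1.94. Its differences in conservative list share were 0.0023 (25-250 kb), -0.0023 (intronic) and 0.0036 (promoter) points. There the GC difference from intronic sites was 0.036 points, and the signal differences among members were -0.0089 per doubling of distance, 0.052 for downstream minus upstream and -0.021 for divergent minus tandem. With an upper distance of 10000 bp there were 3818 members, 52.4% with a core. The core difference from the sites at 25-250 kb was then 0.523 points, the GC difference from intronic sites -0.382 and the core orientation 49.9%. Downstream minus upstream was -0.0079 in signal and 4.99 points in core share, both without a call, and convergent minus tandem -0.091 in signal. With 1 TSS per gene the values were 1.496 points for core share against 25-250 kb, -1.0 points for GC against intronic sites, 49.2% for orientation and 0.075 for downstream minus upstream signal. Including repeat-masked sequence gave a core share of 58.5%, an orientation of 49.1% and 2.56 points for downstream minus upstream core share, no longer a call. A perfect core gave 19.5%, 47.9% and 2.53 for the same results and 0.834 points per doubling of distance, the last 2 no longer calls. Allowing 2 mismatches gave a core share of 81.3% and an orientation of 48.9%. Searching within 25 bp gave a core share of 49.9%, and within 100 bp an orientation of 48.6% and 3.82 points for convergent minus tandem core share. That last value was 3.95 without close sites, and both passed the threshold, which the reported 3.46 did not. Cores in unmasked sequence only, a setting chosen after seeing the data like the GC covariate, gave a core share of 50.9%. Matching summits within 50 bp gave 0.085 for downstream minus upstream signal, and the conservative list -0.0033 for divergent minus tandem signal. Leaving out 1 replicate gave 48.4% to 48.5% for orientation, 0.049 to 0.15 for downstream minus upstream signal, 0.023 to 0.12 for convergent minus tandem signal and 3.795 to 3.95 points for its core share. No paired analysis was possible because there is only 1 group. Read depth is unknown, so the reliability of weak sites rests on the replicates alone.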

Other observations

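Members on the X chromosome were weaker than those on the autosomes. Their median signals were 57.9 and 51.2 in replicates 1 and 2, and the difference in mean log2 signal was -0.47 (-0.64 to -0.30, n = 7517 sites, adjusted p = 9.34e-08). That fit was chosen after the data had been seen.

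Some genes central to lung had no member, and the site nearest to each of them lay inside a gene body or at a promoter. Sftpc, encoding surfactant protein C, Nkx2-1, the transcription factor that specifies lung epithelium, Foxf1, a mesenchymal factor, Wnt2, a mesenchymal Wnt ligand, and Ager, an alveolar type 1 receptor, were in this group. Nkx2-1 had a site 694 bp from a TSS, with signals of 6.45 and 13.5, and Foxf1 one at 598 bp with 14.1 and 7.42. The site nearest to Sftpc, 3367 bp away at the promoter of Bmp1, read 136 and 133. The nearest to Wnt2 lay 48221 bp away and read 127 and 117. Vegfa, the vascular growth factor gene, had 2 members, at 105 and 94.7 and at 37.1 and 25.8, and Hopx, an alveolar type 1 marker, had 2, at 49.5 and 49.8 and at 37.0 and 23.9. The sites nearest to Vegfa and Hopx also lay at promoters, at 134 and 85 bp, so such a site did not preclude members.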
